A study of Mus musculus with 6 samples.

Results

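The genes described here encode the extracellular matrix of the liver, the enzymes that remodel it, and proteins of hepatic stellate cells and myofibroblasts. They are 35 genes of the 56534 genes or loci in the deposited expression matrix, chosen by gene symbol for their known function, with earlier results of these data known. Liver RNA was compared between 3 libraries of wild-type C57BL/6 mice (CON 1 to 3) and 3 libraries of C57BL/6 mice that lack CD36, a long-chain fatty acid transporter, in hepatocytes (LKO 1 to 3). The genotype label of the LKO libraries reads CD36-/-, and the series title calls the deletion hepatocyte-specific. All animals of both groups had received a diet with 60 kcal% fat for 16 weeks. The sources used here do not name the promoter that drives the deletion, the age or sex of the animals, or whether each library came from 1 animal. P-values therefore refer to the spread between these libraries, which may be partly technical.

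Collagens and other matrix proteins form the scaffold around liver cells. Hepatic stellate cells, which store vitamin A as retinyl esters when quiescent, are the main source of fibrillar collagen in the liver. On injury they can turn into myofibroblasts, which make smooth muscle actin, collagens and tissue inhibitors of metalloproteinases, and transforming growth factor beta is the best known signal for this change. Matrix turnover also depends on metalloproteinases and on lysyl oxidases, which crosslink collagen and elastin. In bulk liver RNA, fewer cells of a type and less RNA per cell cannot be told apart. Several of the genes are made by other cells as well: hepatocytes secrete plasma fibronectin, bile duct cells and macrophages make osteopontin, and macrophages make metalloproteinase 12.

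The values are FPKM, fragment counts normalised to gene length and to the size of each library, so that levels can be compared between genes. Of the 35 genes, 27 had a mean of at least 1 FPKM over the 6 libraries and were tested. The other 8 were at a mean under 1 FPKM: Loxl1 (0.648), Loxl2 (0.502), Col5a2 (0.340), Mmp12 (0.270), Timp1 (0.227), Fbn1 (0.173), Lox (0.102) and Mmp13 (0.0233). They are given as values with no test. The highest levels were those of Fn1 (231 FPKM over the 6 libraries), Ecm1 (103), Dcn (71.2), Spp1 (43.1) and Bgn (37.9).

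**Figure D1:**
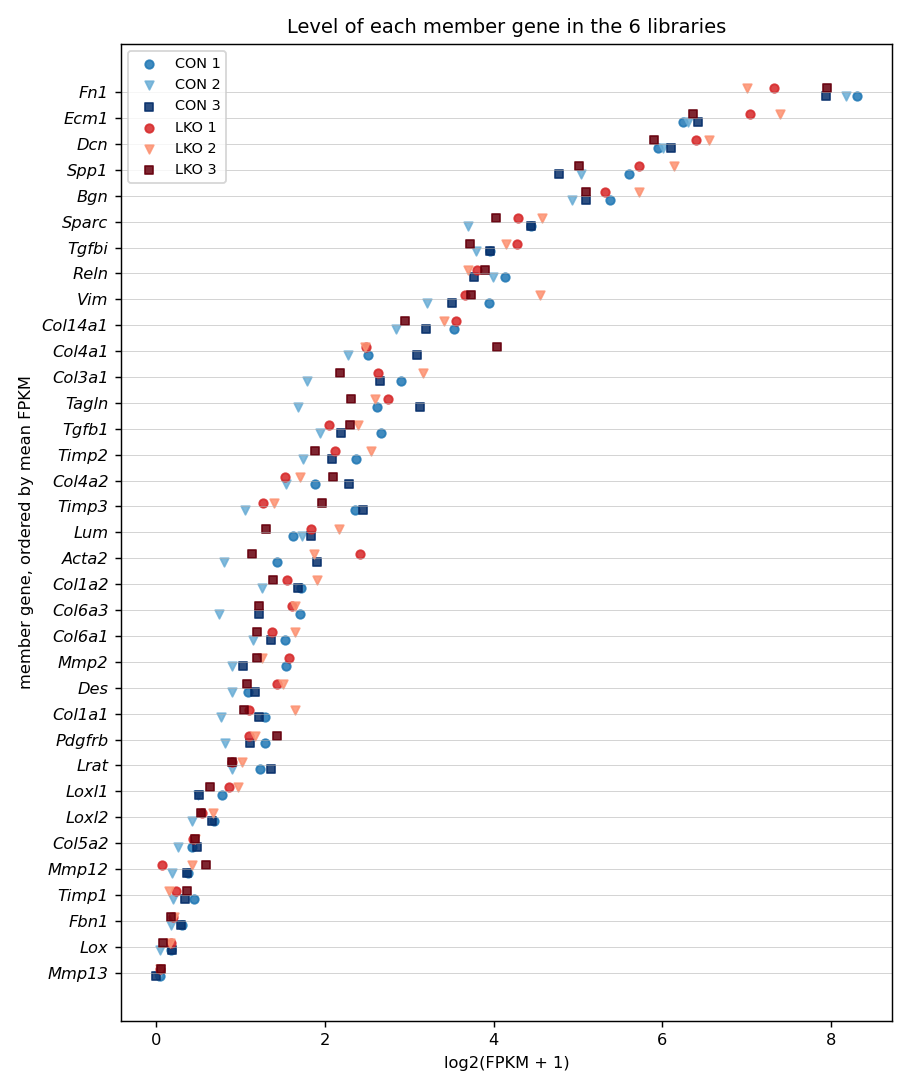
Level of the 35 genes in each library as log2(FPKM + 1) on the horizontal axis, with genes ordered by their mean FPKM on the vertical axis, CON libraries in blue and LKO libraries in red. Fn1, Ecm1 and Dcn are at the top, and the crosslinking enzymes, Timp1, Mmp12 and Mmp13 lie near 0 in both groups.

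None of the 27 tested genes passed at an adjusted p under 0.05 in either direction (limma, adjusted p of 0.198 to 0.966 over all 11104 tested genes). Over all tested genes 0.0% passed as higher and 0.00901% as lower. At an unadjusted p under 0.05, 0 of the 27 were higher and 1 was lower, against 3.25% and 18.9% of all genes. The CON and LKO values overlapped for 27 of 27, whereas 3.92% of all genes had every LKO library above every CON library and 24.3% had every LKO library below.

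Against the general shift of the transcriptome, the matrix and stellate cell genes had higher values. Their median log2 fold change (LKO minus CON, in log2(FPKM + 1), where the added 1 shrinks the fold changes of weakly expressed genes) was 0.15, against -0.23 for all tested genes. Positive values were found for 21 of 27, against 28.4% of all genes. After median-ratio scaling, which sets the typical gene of each library to the same level, the median was 0.36 against 0.02, with 24 of 27 positive against 51.4%. There, 1 of the 27 was higher and 0 were lower at an unadjusted p under 0.05, against 10.3% and 7.91% of all genes. Of the 27, 14 were positive without CON 2 (median 0.01 against -0.27 for all genes), and 14 without LKO 2 (0.05 against -0.16). The genes tested had a median length of 4100 bases against 3010 bases for all, and removing each library's trend with gene length gave a median of 0.45 against 0.00, with 25 of 27 positive.

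**Figure D2:**
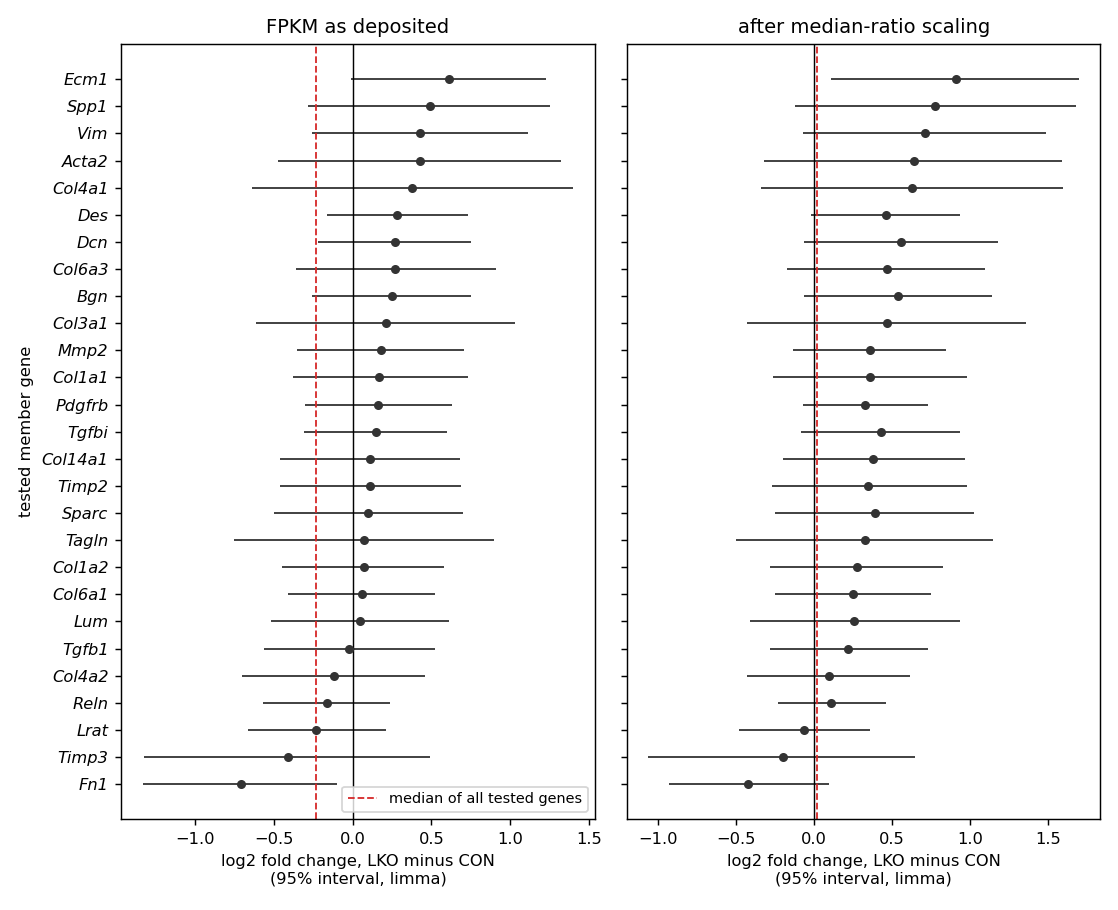
Log2 fold change of the 27 tested genes (LKO minus CON, points) with the 95% interval of limma (bars), from FPKM as deposited on the left and after median-ratio scaling on the right, and the median of all tested genes as a dashed line. On the left only the interval of Fn1, from -1.33 to -0.10, leaves out 0, and on the right only that of Ecm1, from 0.11 to 1.70.

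Promoter sequences are shown for the matrix gene with the highest log2 fold change, Ecm1, for Spp1, which had the next highest on FPKM as deposited, and for the myofibroblast gene Acta2. RefSeq windows (GRCm38.p6) of 250 bases before to 50 after the start site were found for 23 of the 35 genes, with 25 windows in all. Capitals mark the motifs found on either strand: the TATA motif TATAAA, the SMAD half-site GTCTG, the AP-1 site TGANTCA, the SP1 box GGGCGG and the CArG box of serum response factor, with at most 1 of its middle 6 letters other than A or T. That allowance was chosen after the Acta2 sequence was seen. The windows are chr3:95739520-95739819 (minus strand) for Ecm1, chr19:34255324-34255623 (minus strand) for Acta2 and chr5:104434861-104435160 (plus strand) for Spp1, each printed 5′ to 3′.
Ecm1: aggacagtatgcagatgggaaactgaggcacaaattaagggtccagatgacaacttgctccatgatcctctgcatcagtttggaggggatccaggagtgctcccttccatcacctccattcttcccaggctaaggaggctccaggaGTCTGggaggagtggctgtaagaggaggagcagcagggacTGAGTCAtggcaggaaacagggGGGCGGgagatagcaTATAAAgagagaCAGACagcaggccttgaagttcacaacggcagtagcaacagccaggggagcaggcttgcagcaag
Acta2: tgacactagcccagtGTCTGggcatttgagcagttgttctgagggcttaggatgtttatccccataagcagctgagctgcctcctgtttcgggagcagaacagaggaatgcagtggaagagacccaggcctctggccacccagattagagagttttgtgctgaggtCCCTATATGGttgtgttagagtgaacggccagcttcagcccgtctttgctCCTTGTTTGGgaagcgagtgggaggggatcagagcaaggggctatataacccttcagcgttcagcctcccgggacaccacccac
Spp1: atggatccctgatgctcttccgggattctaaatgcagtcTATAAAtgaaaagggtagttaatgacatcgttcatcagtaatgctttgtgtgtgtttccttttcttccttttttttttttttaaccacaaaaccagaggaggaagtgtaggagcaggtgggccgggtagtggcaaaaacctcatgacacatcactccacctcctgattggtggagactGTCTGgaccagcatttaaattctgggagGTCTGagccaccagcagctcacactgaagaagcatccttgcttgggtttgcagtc
The Acta2 window held a pair of CArG boxes, CCCTATATGG and CCTTGTTTGG. Each has 1 middle letter other than A or T, so both count only through the allowance chosen after this sequence was seen. A CArG box in this sense was in 5 of the 25 windows (20.0%), those of Acta2, Col1a2, Col6a3, Lrat and Timp3, against 9.98% of all 32851 windows. The Acta2 match in that share was fixed by the choice of the allowance. The Ecm1 window held TGAGTCA, and TGANTCA was in 4 of the 25 (16.0%, against 7.81% of all). GGGCGG was in 14 of the 25 (56.0%, against 35.7%), TATAAA in 6 (24.0%, against 13.6%) and GTCTG in 12 (48.0%, against 49.6%). The full SMAD palindrome GTCTAGAC was in 0 of the 25 and in 0.213% of all windows. A match is a description of these letters and not a measured binding site.

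Single libraries carried part of the difference between the matrix genes and all genes. CON 2 was the lowest of the 6 libraries for 18 of the 27 genes (66.7%), against 9.21% of all tested genes. LKO 2 was the highest for 13 of the 27 (48.1%), against 10.5% of all genes. As differences from the CON mean in log2(FPKM + 1), the median of the 27 genes was 0.18 in CON 1, -0.30 in CON 2 and 0.08 in CON 3. For LKO 1, LKO 2 and LKO 3 it was 0.11, 0.36 and -0.12, while the median of all genes there was -0.21, -0.38 and -0.11. In LKO 3 the matrix genes thus moved with all genes, unlike in LKO 1 and LKO 2, and the LKO 3 value lay inside the CON range for 22 of 27 genes (81.5%, against 42.1% of all genes).

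Some other measures also set CON 2 or LKO 2 apart, and others did not. The summed level of 10 sinusoidal endothelial markers, all of them at a mean of at least 1 FPKM, was 54.8 FPKM in CON 2, against 149 and 121 in CON 1 and CON 3 and 67.5 to 105 in the LKO libraries. The summed level of 10 markers of recruited and lipid-associated macrophages, 5 of them at a mean of at least 1 FPKM, was lowest in CON 2 (20.8 FPKM) and highest in LKO 2 (35.3 FPKM), and 26.1 to 28.0 FPKM in the other 4 libraries. The sum of 10 Kupffer cell markers was also highest in LKO 2 (347 FPKM), but CON 2 was next at 315 FPKM, above the 180 to 297 FPKM of the other 4. Sums of 18 other stellate cell markers and 12 smooth muscle and portal fibroblast markers were highest in CON 1 and lowest in LKO 3. In LKO 2 they were 190 and 19.9 FPKM, below the 197 and 21.6 FPKM of CON 2. Over all genes, the Spearman correlation of a library's deviations with gene length was -0.33 and -0.30 in LKO 1 and LKO 2, and 0.10 to 0.29 in the other 4 libraries. Cd36, the deleted gene, was at 61.95, 26.49 and 19.66 FPKM in CON 1 to 3 and at 2.73, 3.70 and 10.22 FPKM in LKO 1 to 3 (exact two-sided permutation test, p = 0.1, the smallest that 3 against 3 libraries allow). The part of these differences in the matrix gene values was not tested, apart from the fits without single libraries and without the length trend.

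**Figure D3:**
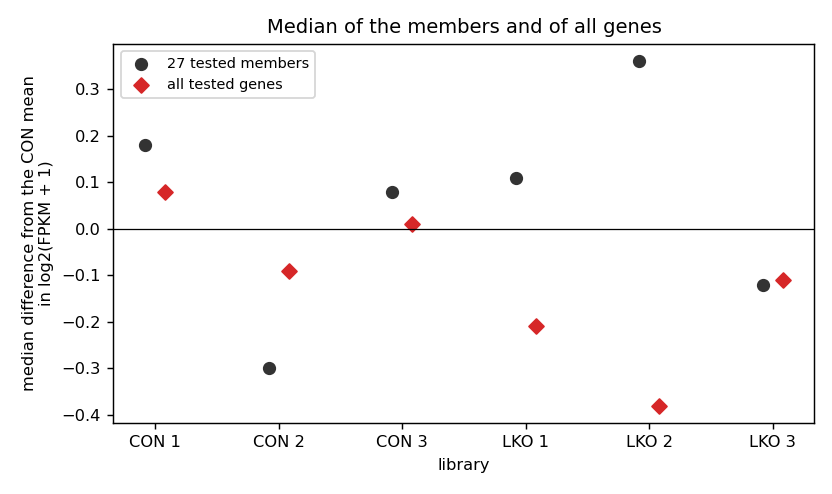
Median difference from the CON mean in log2(FPKM + 1) on the vertical axis for each library, for the 27 tested matrix and stellate cell genes (black circles) and for all tested genes (red diamonds). CON 2 is lowest for the matrix genes (-0.30), and LKO 2 has the widest gap between matrix genes (0.36) and all genes (-0.38).

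**Figure D4:**
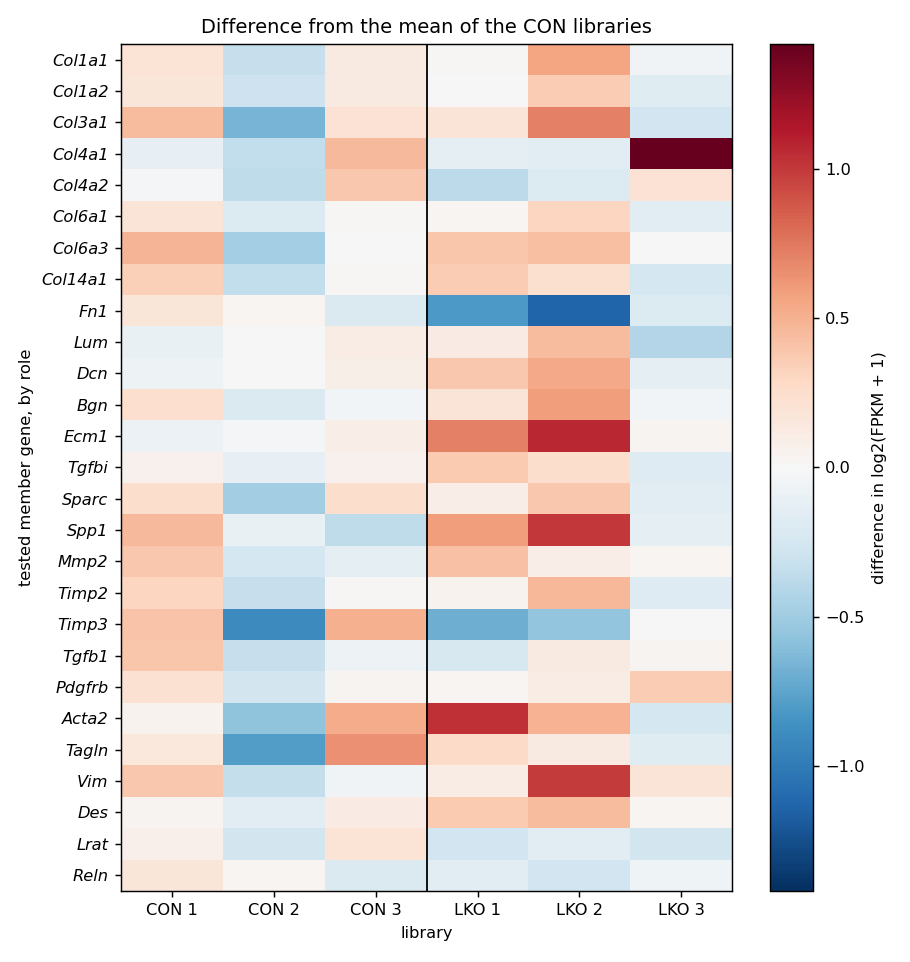
Difference of each library from the mean of the CON libraries in log2(FPKM + 1), as colour, for the 27 tested genes (rows, ordered by role) in the 6 libraries (columns). The CON 2 column is blue for most genes, and the gene that differs most is Acta2 in LKO 1, Fn1 in LKO 2 and Col4a1 in LKO 3.

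Fibrillar collagens were expressed at low levels with overlapping groups. Col1a1, the alpha 1 chain of type I collagen, was at 1.44, 0.70 and 1.32 FPKM in CON 1 to 3 and at 1.15, 2.14 and 1.05 FPKM in LKO 1 to 3. LKO 2 was the highest library and CON 2 the lowest, and the other 4 lay close together. The log2 fold change of Col1a1 was 0.17 (SE 0.24, 95% interval -0.38 to 0.73, limma adjusted p = 0.657). Col1a2, its partner chain, was at 2.29, 1.38 and 2.20 FPKM in CON and at 1.94, 2.76 and 1.60 FPKM in LKO. Col3a1, the chain of type III collagen, was at 6.46, 2.46 and 5.30 FPKM in CON and at 5.18, 7.99 and 3.51 FPKM in LKO. All of these genes had their lowest value in CON 2 and their highest in LKO 2. The ratio of Col1a1 to Col1a2 ranged from 0.507 in CON 2 to 0.775 in LKO 2 (exact two-sided permutation test of the log2 ratio between the groups, p = 0.3). Col5a2, a minor chain of fibrillar collagen, was at 0.20 to 0.40 FPKM in CON and 0.35 to 0.38 FPKM in LKO.

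Basement membrane collagen IV is built from the chains of Col4a1 and Col4a2, whose genes lie head to head. In the RefSeq annotation of GRCm38.p6, the Col4a1 window on the minus strand of chromosome 8 (chr8:11312777-11313076) and the Col4a2 window on the plus strand (chr8:11312555-11312854) share 78 bases, and the annotated start sites lie 21 bases apart. Col4a1 was at 4.70, 3.83 and 7.51 FPKM in CON and at 4.62, 4.54 and 15.48 FPKM in LKO. Col4a2 was at 2.69, 1.90 and 3.86 FPKM in CON and at 1.89, 2.27 and 3.29 FPKM in LKO. The ratio of Col4a1 to Col4a2 was 1.75 to 2.02 in the CON libraries, 2.44 and 2.0 in LKO 1 and LKO 2, and 4.71 in LKO 3. LKO 3 thus stood apart in Col4a1 without a like value of Col4a2, a comparison chosen after the values were seen. Between the groups, the log2 ratio gave p = 0.2 (exact two-sided permutation test). The log2 fold change of Col4a1 was 0.38 (95% interval -0.64 to 1.40) in all libraries and -0.14 without LKO 3. With a pseudocount of 1, the LKO 3 value of Col4a1 was 1.94 times that of the next library, which ranked 41 among the tested genes by that ratio in LKO 3.

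The chains of collagen VI, which forms beaded filaments, and collagen XIV, which binds fibril surfaces, had overlapping groups. Col6a1 was at 1.22 to 1.89 FPKM in CON and 1.28 to 2.14 FPKM in LKO. Col6a3 was at 0.67 to 2.26 FPKM in CON and 1.33 to 2.13 FPKM in LKO. Col14a1 was at 6.18 to 10.52 FPKM in CON and 6.70 to 10.72 FPKM in LKO. The log2 fold changes of these genes lay between 0.06 and 0.27.

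Among matrix glycoproteins and proteoglycans, Fn1 and Ecm1 had the smallest p-values. Fn1 encodes fibronectin, which links matrix fibres to integrins. It was at 317.52, 287.93 and 245.25 FPKM in CON and at 159.85, 127.77 and 246.54 FPKM in LKO. Every CON library exceeded LKO 1 and LKO 2, and LKO 3 was level with the lowest of them, CON 3. The CON mean was 284 ± 36.3 FPKM and the LKO mean 178 ± 61.4 FPKM (SD, 3 libraries each), which gave a log2 fold change of -0.71 (SE 0.26, limma adjusted p = 0.198). The value was -0.42 after median-ratio scaling and -0.34 with the length trend removed. The deposited length of Fn1 was 8315 bases, above the median of 4100 bases for the 27 tested genes.

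Ecm1 encodes extracellular matrix protein 1, a secreted glycoprotein. Its promoter is printed above. It was at 74.88, 78.40 and 85.02 FPKM in CON and at 130.88, 167.84 and 81.50 FPKM in LKO. Both LKO 1 and LKO 2 lay above every CON library, and LKO 3 lay inside the CON range. The log2 fold change was 0.61 (SE 0.27, limma adjusted p = 0.229), and it was 0.91 (adjusted p = 0.261) after median-ratio scaling and 0.79 with the length trend removed. Without LKO 3, Fn1 and Ecm1 passed over all genes, at -0.98 (limma adjusted p = 0.0225) and 0.89 (limma adjusted p = 0.0223). In that fit 18.9% of all genes passed lower and 4.67% higher. With LKO 3 left out and the length trend removed together, an alternative chosen after seeing the data, Fn1 was at -0.47 (adjusted p = 0.114) and did not pass. Ecm1 then passed at 1.10, along with Dcn (0.90), Col14a1 (0.78), Des (0.75) and Tgfbi (0.64), where 6.39% of all genes passed higher and 5.61% lower. Over all 6 libraries, none of these 6 genes passed with or without the length trend.

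The small leucine-rich proteoglycans bind collagen fibrils. Dcn, decorin, was at 60.63, 63.60 and 67.63 FPKM in CON and at 83.70, 93.30 and 58.61 FPKM in LKO, and Bgn, biglycan, at 40.61, 29.47 and 33.27 FPKM in CON and at 39.00, 52.01 and 33.20 FPKM in LKO. For Dcn, LKO 1 and LKO 2 lay above the CON range and LKO 3 just below it. Bgn was above the CON range in LKO 2 alone. Lum, lumican, was at 2.07 to 2.57 FPKM in CON and 1.47 to 3.50 FPKM in LKO. The log2 fold changes were 0.27, 0.25 and 0.05 for Dcn, Bgn and Lum (limma adjusted p of 0.433, 0.486 and 0.919).

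Spp1 encodes osteopontin, a secreted phosphoprotein of bile duct cells, macrophages and activated stellate cells. It was at 47.66, 31.86 and 26.43 FPKM in CON and at 52.06, 69.58 and 31.27 FPKM in LKO. Again LKO 1 and LKO 2 were above every CON library, and LKO 3 was inside the CON range (log2 fold change 0.49, SE 0.33, limma adjusted p = 0.374). The sum of 8 other bile duct markers was 7.92 to 11.8 FPKM in CON and 6.71 to 9.82 FPKM in LKO, with Cftr under 0.1 FPKM on average. Sparc, a collagen-binding matricellular protein, was at 11.99 to 20.76 FPKM in CON and 15.35 to 22.88 FPKM in LKO. Tgfbi, a secreted protein induced by transforming growth factor beta, was at 12.80 to 14.57 FPKM in CON and 12.15 to 18.41 FPKM in LKO. Fbn1, fibrillin 1, was at 0.13 to 0.24 FPKM in all 6 libraries.

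Proteases and their inhibitors were represented by 3 tested genes, Timp3, Timp2 and Mmp2. Timp3, an inhibitor that binds to the matrix, was at 4.13, 1.08 and 4.49 FPKM in CON and at 1.41, 1.63 and 2.90 FPKM in LKO. CON 2 was the lowest library, below every LKO library, and CON 1 and CON 3 were above every LKO library. Its log2 fold change was -0.41 (SE 0.39, limma adjusted p = 0.512), and -0.87 without CON 2 (adjusted p = 0.302). After median-ratio scaling it was -0.20, and with the length trend removed -0.08. Timp1, the inhibitor that activated stellate cells make, was at 0.36, 0.15 and 0.27 FPKM in CON and at 0.18, 0.11 and 0.29 FPKM in LKO. Timp2 was at 2.34 to 4.17 FPKM in CON and 2.69 to 4.82 FPKM in LKO. The gelatinase gene Mmp2 was at 0.87 to 1.91 FPKM in CON and 1.28 to 1.97 FPKM in LKO. The log2 fold changes of Timp2 and Mmp2 were 0.11 and 0.18, after median-ratio scaling 0.35 and 0.36, and with the length trend removed 0.41 and 0.45. The macrophage elastase gene Mmp12 was at 0.14 to 0.30 FPKM in CON and at 0.05, 0.34 and 0.50 FPKM in LKO, and the collagenase gene Mmp13 did not exceed 0.04 FPKM in any library.

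The crosslinking enzymes were low in both groups. Lox was at 0.03 to 0.14 FPKM in CON and 0.06 to 0.13 FPKM in LKO, Loxl2 at 0.34 to 0.61 and 0.44 to 0.59 FPKM. Loxl1 was at 0.72, 0.41 and 0.42 FPKM in CON and at 0.82, 0.96 and 0.56 FPKM in LKO.

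Of the genes that mark quiescent stellate cells, Lrat was low and Reln was among the more abundant of the 35. Lrat, which makes the retinyl esters that stellate cells store, was at 1.35, 0.87 and 1.57 FPKM in CON and at 0.86, 1.03 and 0.87 FPKM in LKO. CON 2 shared the level of the LKO libraries. Reln, reelin, was at 16.62, 14.92 and 12.57 FPKM in CON and at 12.96, 11.94 and 13.96 FPKM in LKO. It varied least of the tested genes, with a highest value 1.39 times the lowest. The log2 fold changes were -0.23 and -0.16 (95% intervals -0.66 to 0.21 and -0.57 to 0.24). After median-ratio scaling they were -0.06 and 0.11, and with the length trend removed 0.13 and 0.20. Of 18 stellate cell markers outside the 35 genes, 12 had a mean of at least 1 FPKM, and Gfap was under 0.1 FPKM. Their sum was 197 to 262 FPKM in CON and 167 to 196 FPKM in LKO, with LKO below every CON library; Cxcl12, which other liver cells also make, supplied 92.36 to 151.46 FPKM of it in CON and 53.41 to 76.92 FPKM in LKO. Over the 12, 7 log2 fold changes were positive (58.3%, against 28.4% of all genes) and 5 negative. After median-ratio scaling 10 were positive (83.3%, against 51.4%).

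Des and Vim encode the intermediate filament proteins desmin and vimentin, the latter made by many mesenchymal and blood cells. Des was at 1.13, 0.86 and 1.25 FPKM in CON and at 1.69, 1.83 and 1.11 FPKM in LKO, with LKO 3 inside the CON range. Vim was at 14.35, 8.28 and 10.39 FPKM in CON and at 11.66, 22.45 and 12.29 FPKM in LKO, with LKO 2 the only library above the CON range. LKO 2 also had the highest sums of macrophage markers, but single markers went both ways. C1qa was at 75.0 FPKM in LKO 2 and 39.87 to 54.47 FPKM in CON, and Adgre1 at 1.90 and 3.70 to 6.24 FPKM. A link of these markers to Vim was not tested. Pdgfrb, the platelet-derived growth factor receptor of stellate cells and pericytes, was at 1.44, 0.76 and 1.16 FPKM in CON and at 1.15, 1.26 and 1.69 FPKM in LKO. Tgfb1, which encodes transforming growth factor beta 1, was at 2.84 to 5.34 FPKM in CON and 3.12 to 4.27 FPKM in LKO. The log2 fold changes were 0.28, 0.43, 0.16 and -0.02 for Des, Vim, Pdgfrb and Tgfb1. After median-ratio scaling 3 of the 27 genes, Ecm1, Vim and Pdgfrb, had every LKO library above every CON library, as did 12.3% of all genes. The margins were narrow for Vim (scaled 12.1 FPKM in CON 1, 12.3 FPKM in LKO 3) and Pdgfrb (1.21 FPKM in CON 1, 1.24 FPKM in LKO 1). None of the 27 genes had the reverse, as 11.1% of all genes did. That scaling turned Tgfb1 to 0.22.

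Acta2, smooth muscle actin, and Tagln, transgelin, mark myofibroblasts and vascular smooth muscle. Acta2 was at 1.69, 0.75 and 2.75 FPKM in CON and at 4.35, 2.67 and 1.19 FPKM in LKO. LKO 1 was the only library above the CON range, and the promoter of Acta2 is the one shown above with a pair of CArG boxes. Tagln was at 5.14, 2.20 and 7.72 FPKM in CON and at 5.69, 5.05 and 3.94 FPKM in LKO, all LKO libraries inside the CON range. The ratio of Acta2 to Tagln was 0.329, 0.341 and 0.356 in CON 1 to 3, and 0.764, 0.529 and 0.302 in LKO 1 to 3. CON libraries thus held a narrow ratio over a wide range of both genes, while LKO 1 and LKO 2 were above it and LKO 3 below. That comparison was also chosen after the values were seen. Between the groups, the log2 ratio gave p = 0.4 (exact two-sided permutation test). The log2 fold changes were 0.43 and 0.07 (95% intervals -0.47 to 1.32 and -0.75 to 0.90). Of 12 other smooth muscle and portal fibroblast markers, 5 had a mean of at least 1 FPKM, and Gli1, Upk3b and Msln were under 0.1 FPKM. Their sum was 20.5 to 37.1 FPKM in CON and 16.5 to 21.8 FPKM in LKO, and 2 of the 5 tested had a positive log2 fold change. In each library most of that sum came from Tpm2 and Mylk, so it mainly reflects these genes and not the other markers. For Tpm2, a tropomyosin gene, the CON libraries spanned 5.73 to 19.37 FPKM and the LKO libraries 4.75 to 8.87 FPKM. The groups overlapped there (log2 fold change -0.62, limma adjusted p = 0.35). Single contractile genes had values on both sides. Myl9, a myosin regulatory light chain of smooth muscle, was at 1.78, 1.39 and 2.59 FPKM in CON and at 4.48, 3.68 and 1.76 FPKM in LKO. Like Acta2 it was lowest in CON 2 and highest in LKO 1 (log2 fold change 0.52, limma adjusted p = 0.303). Cnn1 and Actg2, further contractile genes, were under 1 FPKM in every library and highest in LKO 1, at 0.76 and 0.71 FPKM. Mylk, the myosin light chain kinase gene, was instead lower in every LKO library, at 6.99 to 11.76 FPKM in CON and 4.02 to 6.59 FPKM in LKO (log2 fold change -0.72, limma adjusted p = 0.193). The choice of these marker genes was made with their values in view, and their part in the Acta2 values was not tested.

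**Figure D5:**
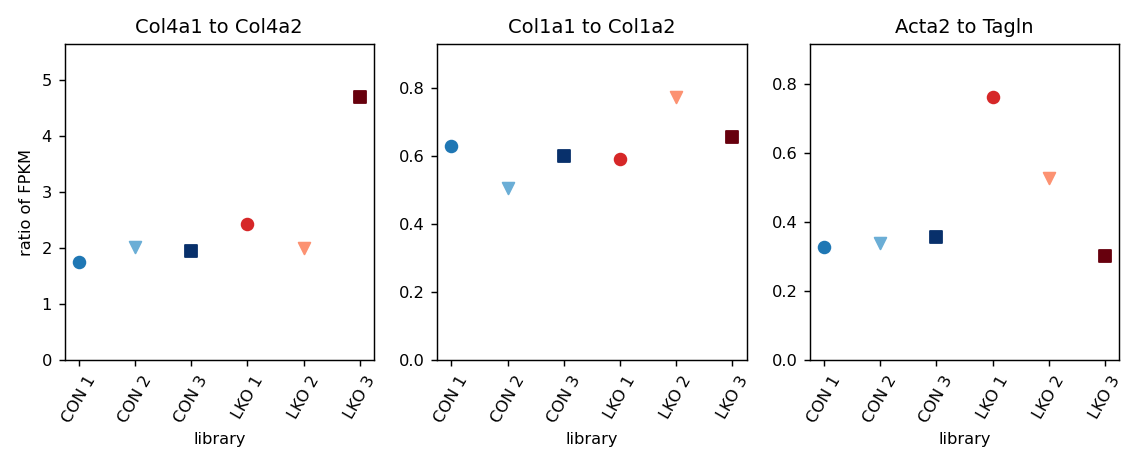
Ratio of FPKM of 3 pairs of genes (vertical axes, from 0) in each library (horizontal axes), with CON in blue and LKO in red. The ratio of Col4a1 to Col4a2 stands at 4.71 in LKO 3, and the ratio of Acta2 to Tagln stands at 0.764 and 0.529 in LKO 1 and LKO 2, above the 0.329 to 0.356 of CON.

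Other genes of matrix assembly, 120 found in the file in 7 lists, had 70 tested members. None passed over all genes (limma), against the 0.0% higher and 0.00901% lower of all genes. At an unadjusted p under 0.05, 0 of the 70 were higher and 13 lower (18.6%), against 3.25% and 18.9% of all genes. Their median was -0.14, against -0.23 for all genes, with 25 of 70 positive (35.7%, against 28.4%). After median-ratio scaling 7 were higher and 5 lower at that p, against 10.3% and 7.91% of all genes, with a median of 0.08 against 0.02 and 39 of 70 positive (55.7%, against 51.4%).

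The collagen and basement membrane lists held values on both sides. The sign counts of each list stand beside 28.4% of all genes positive and 71.6% negative, and after median-ratio scaling beside 51.4% and 48.6%. Of 8 other collagens tested, 3 were positive, with a median of -0.09, and 5 after scaling, with a median of 0.10. Col18a1, the collagen from which endostatin is cut and which hepatocytes make, was at 211.63, 166.42 and 147.64 FPKM in CON and at 79.77, 74.78 and 129.01 FPKM in LKO, without overlap (log2 fold change -0.91, limma adjusted p = 0.179). Col16a1 (0.53) and Col5a1 (0.20) had the next smallest p. Of 12 basement membrane and elastic fibre genes tested, 9 were positive, with a median of 0.23, and 10 after scaling, with a median of 0.43. Efemp1 (0.43), Ltbp3 (0.37) and Nid1 (-0.30) had the smallest p. Of 7 matricellular proteins and other proteoglycans tested, 5 were positive and 6 after scaling, with Ccn1 at -0.87, Vtn at 0.13 and Smoc2 at 0.13.

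Collagen maturation enzymes were on both sides, and proteases, signalling genes and receptors were mostly negative, as were 71.6% of all genes. Of 11 maturation enzymes tested, 6 were positive and 5 negative, with a median of 0.10. After median-ratio scaling 7 were positive and 4 negative, with a median of 0.33. At an unadjusted p under 0.05 (limma), 3 were then higher and 1 lower, against 10.3% and 7.91% of all genes. The 5 included the collagen galactosyltransferase gene Colgalt1 (CON 19.3 ± 1.94 FPKM, LKO 10.5 ± 1.93 FPKM, SD, n = 3), the procollagen C-proteinase gene Bmp1 (-0.56) and the lysyl hydroxylase gene Plod1 (-0.41). Of 8 other matrix protease and plasminogen system genes tested, 8 were negative, with a median of -0.68. Mmp15, a membrane-type metalloproteinase, had a mean of 8.35 ± 1.30 FPKM (SD, n = 3) in the CON and 4.01 ± 0.948 FPKM in the LKO libraries. Plg, plasminogen, was at 868 ± 150 and 510 ± 156 FPKM, and Mmp19 at 15.9 ± 2.72 and 8.56 ± 4.85 FPKM. After median-ratio scaling 6 of these 8 were negative, against 48.6% of all genes, with a median of -0.43. Of 14 signalling genes of transforming growth factor beta, bone morphogenetic protein and platelet-derived growth factor tested, 13 were negative, among them Smad2 (-0.82), Pdgfc (-0.49) and Smad6 (-0.55), and 9 after median-ratio scaling. Of 10 integrins and matrix receptors tested, 9 were negative, and 6 after that scaling. The syndecan gene Sdc1, a heparan sulfate proteoglycan of the hepatocyte surface, was at 89.46, 71.68 and 58.45 FPKM in CON and at 34.23, 27.01 and 37.63 FPKM in LKO (log2 fold change -1.12, limma adjusted p = 0.163). Itga5 and Itgb5 were at -0.59 and -0.48.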

How the data were processed

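Liver RNA of 6 libraries was analysed from 1 matrix of FPKM values, made by the authors and deposited with 2 decimals. Per the submitters' processing notes, HISAT2 and StringTie were used with the mouse build mm9. The sources used here give no versions, options or annotation release. Gene lengths in bases were deposited beside them, per the file headers. The matrix held 56534 genes or loci. The product of FPKM and length could not be resolved into whole reads (at best 26.5% to 35.0% of low values within 0.1 of a step, over the libraries), so no count test was made and the depth in reads is unknown.

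Genes with a mean of at least 1 FPKM (11104) were tested on log2(FPKM + 1) with limma 3.58.1 in R 4.3.3, with an empirical Bayes mean-variance trend, group as the only term, two-sided, and Benjamini-Hochberg adjustment over all of them at 0.05. The steps were tested on simulated data. Alternatives were a pseudocount of 0.1, no filter, a mean of at least 5 FPKM, median-ratio scaling, removal of mitochondrial and Mup genes with rescaling, removal of each library's length trend, the library number as a block, and each library left out. The genes and lists were chosen with earlier results of these data known. All 35 genes are given; per-library values are given for 13 fixed genes and the 10 with the smallest unadjusted p, and also for Col4a1, Col4a2, Loxl1 and Mmp12, chosen after their values were seen. Of each list of other matrix genes the 3 with the smallest p are named. Some marker results are not reported here.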

Additional observations from a re-analysis of the deposited data

How the results depend on the processing

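No tested matrix or stellate cell gene passed over all genes in any fit that kept LKO 3. Without it, Fn1 and Ecm1 passed, and a further removal of the length trend (chosen after seeing the data) left Ecm1, Dcn, Col14a1, Des and Tgfbi past the threshold. Over all genes, 0 passed higher and 1 lower. The lower count was 0 with a pseudocount of 0.1, with no filter, with a mean of at least 5 FPKM, with the length trend removed and with the replicate block, and with single libraries left out the counts ranged from 0 to 521 higher and from 0 to 2111 lower. With the length trend removed and LKO 3 left out they were 712 and 625. The cause was not tested.

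Negative values among the 27 genes numbered 6, against 2 of 12 at a mean of at least 5 FPKM (where fewer genes are tested), 3 after median-ratio scaling, 2 with the length trend removed, 2 with LKO 3 also left out, and 4 to 13 with single libraries left out. Their median of 0.15 was 0.45 with the length trend removed and 0.64 with LKO 3 also left out. Signs turned after median-ratio scaling for Col4a2 (0.10), Tgfb1 (0.22) and Reln (0.11). They turned with the length trend removed for Col4a2 (0.25), Tgfb1 (0.22), Lrat (0.13) and Reln (0.20), and with LKO 3 also left out for the same 4 genes (0.21, 0.24, 0.26 and 0.27). With single libraries left out, signs turned for Col1a1 (-0.02 to 0.29), Col1a2 (-0.08 to 0.18), Col3a1 (-0.12 to 0.45), Col4a1 (-0.14 to 0.64), Col4a2 (-0.30 to 0.07), Col6a1 (-0.07 to 0.16), Col14a1 (-0.06 to 0.29), Lum (-0.15 to 0.28), Sparc (-0.14 to 0.24), Timp2 (-0.07 to 0.27), Tgfb1 (-0.18 to 0.18) and Tagln (-0.32 to 0.40). Of these turns, 7 came without CON 2 and 7 without LKO 2.

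The libraries share only a number: deviations of same-numbered libraries correlated at -0.05, 0.17 and 0.07 over genes. With the replicate block, 0 of the 27 genes passed and the smallest adjusted p among them was 0.21 (limma). The depth in reads is unknown, which limits the 8 genes under 1 FPKM most.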
